A study of Mus musculus with 12 samples.

Results

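The comparison set mouse peritoneal macrophages given interferon gamma (IFN-γ) against untreated macrophages. Its members were the 3 libraries labelled IFN-γ only and the 3 control libraries, 6 of the 12 RNA-seq libraries in the series, and all genes that passed a filter on low counts (13474 of the 55586 in the table). The other 2 groups, also 3 libraries each, received Remodelin hydrobromide alone or Remodelin with IFN-γ. Remodelin is an inhibitor of NAT10, the acetyltransferase that writes N4-acetylcytidine in RNA. Control cells received neither agent, and the IFN-γ group received IFN-γ without Remodelin. Cells of every group were peritoneal macrophages cultured in serum-containing medium, and total RNA was extracted. The dose and duration of IFN-γ, the mouse strain and the animals behind each library are not given in the labels, so p-values measure the spread between libraries, which may be technical.

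IFN-γ is the classical activating cytokine of macrophages. It binds a receptor of IFNGR1 and IFNGR2 chains, the kinases JAK1 and JAK2 pass the signal to the nucleus, and gamma-activated sites (GAS) are bound in promoters such as that of Irf1, a transcription factor gene. IRF factors then act on further promoters, among them those with interferon-stimulated response elements (ISRE), and macrophages make guanylate-binding proteins, antigen presentation machinery, the chemokines CXCL9 and CXCL10, and the nitric oxide synthase NOS2. These genes are therefore the usual readout of an IFN-γ treatment.

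Promoters of 3 such genes are shown because the comparison turns on them: Irf1 with a GAS, and Gbp2 and Ifit1 with ISRE-like elements. Each is the 250 bases before the gene's start in RefSeq on GRCm38.p6, plus strand, 5′ to 3′, with matches in capitals. Irf1 (chr11:53769764-53770013) holds 1 match to the GAS letters TTCNNNGAA, which ends 81 bases before the start. Gbp2 (chr3:142620413-142620662) holds 1 match to the ISRE-like letters (GAAA, any 2 bases, GAAA), read on the other strand and ending 49 bases before the start. Ifit1 (chr19:34640639-34640888) holds 2 such matches, ending 94 and 75 bases before it.
Irf1: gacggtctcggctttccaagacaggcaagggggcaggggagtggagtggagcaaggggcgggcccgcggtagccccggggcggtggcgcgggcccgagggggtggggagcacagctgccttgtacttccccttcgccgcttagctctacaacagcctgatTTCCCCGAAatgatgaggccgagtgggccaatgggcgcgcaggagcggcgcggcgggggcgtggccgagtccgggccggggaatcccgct
Gbp2: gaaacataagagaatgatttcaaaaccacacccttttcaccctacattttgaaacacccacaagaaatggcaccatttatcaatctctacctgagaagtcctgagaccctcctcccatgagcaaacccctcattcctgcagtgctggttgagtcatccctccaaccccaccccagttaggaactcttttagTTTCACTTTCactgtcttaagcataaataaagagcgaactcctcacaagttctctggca
Ifit1: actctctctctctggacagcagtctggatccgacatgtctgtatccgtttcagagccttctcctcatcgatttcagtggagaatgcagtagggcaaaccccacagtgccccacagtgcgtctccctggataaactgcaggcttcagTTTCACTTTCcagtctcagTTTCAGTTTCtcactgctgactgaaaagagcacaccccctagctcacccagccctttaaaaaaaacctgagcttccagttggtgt
Of the 27025 genes with a promoter window in the RefSeq table, 9.55% held the GAS letters and 3.99% the ISRE-like letters on either strand. A match describes the letters and is not a shown binding site.

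The 6 libraries held 17227314 to 19418665 counts and 17808 to 18085 detected genes. Macrophage transcripts were abundant in all 6: the 12 macrophage markers, among them Lyz2, Csf1r and Adgre1, summed to 44623 to 64369 CPM in control and 55214 to 64261 CPM in IFN-γ libraries. CPM, the usual per-library scale of RNA-seq counts, here divides by the total over tested genes after TMM normalisation. Gata6, the transcription factor of large peritoneal macrophages, was detected at 13.9 to 19.5 CPM in control and 11.5 to 16.1 CPM in IFN-γ libraries. Timd4, another marker of these cells, was at or near 0, with at most 0.113 CPM. The 3 control libraries differed more from each other (chi-square per degree of freedom 24.9 to 45.5) than the 3 IFN-γ libraries did (7.76 to 17.5).

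Across all genes, 2 genes were called higher with IFN-γ and 0 lower by edgeR's quasi-likelihood test at a Benjamini-Hochberg adjusted p under 0.05, that is 0.0148% of genes tested in the higher direction and 0% in the lower. The 2 genes were mt-Tp, the mitochondrial proline tRNA gene, and Gm17066, a predicted long noncoding RNA. At an unadjusted p under 0.05 the counts were 400 higher (2.97%) and 324 lower (2.4%), 5.37% in all. The 3 IFN-γ libraries all stood above the 3 control libraries for 1237 genes (9.18%) and below them for 1147 genes (8.51%). The median log2 fold change was 0.00264, and its 5th and 95th percentiles over genes were -0.53 and 0.53. The upper 95% limit of the log2 fold change was under 1, a 2-fold rise, for 11774 genes (87.4%).

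Neither chain of the receptor differed beyond its error. Ifngr1, the ligand-binding chain, was at 71.0, 63.7 and 65.8 CPM in the control libraries and 71.3, 68.0 and 77.1 CPM in the IFN-γ libraries. The groups overlapped, and the log2 fold change was 0.11 ± 0.15 (SE, n = 3 libraries per group, as throughout). Ifngr2, the signalling chain, was at 174, 262 and 213 CPM in control and 268, 278 and 250 CPM with IFN-γ. Control library 1 was the lowest and the groups overlapped, with a log2 fold change of 0.29 ± 0.15 (95% interval -0.03 to 0.62). Both chains were expressed in all 6 libraries.

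The kinases that the receptor uses did not differ beyond their error either. Jak1 was at 133, 104 and 98.3 CPM in control and 115, 121 and 133 CPM with IFN-γ, a log2 fold change of 0.14 ± 0.16. Jak2 was at 11.3, 7.87 and 5.86 CPM in control and 9.85, 10.5 and 12.3 CPM with IFN-γ. Its log2 fold change of 0.38 ± 0.28 had an interval of -0.20 to 0.96.

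Irf1, whose promoter is shown above, was at 18.8, 19.5 and 22.5 CPM in control and 26.6, 21.1 and 18.6 CPM with IFN-γ. Its lowest and highest libraries were both in the IFN-γ group, and its log2 fold change of 0.12 ± 0.17 had an interval of -0.24 to 0.49, which ended at a 1.40-fold rise (adjusted p = 0.948). Irf8, a macrophage interferon regulatory factor, was at 142, 171 and 148 CPM in control and 168, 143 and 135 CPM with IFN-γ, a log2 fold change of -0.05 ± 0.15.

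Socs1, the feedback inhibitor of JAK kinases, was at 2.99, 3.58 and 3.53 CPM in control and 2.83, 2.54 and 2.63 CPM with IFN-γ. All 3 IFN-γ libraries lay below the controls, and the log2 fold change of -0.33 ± 0.29 did not pass the test. Of the 27 genes of IFN-γ receptor and JAK-STAT signalling, 0 passed the test and 0 had an unadjusted p under 0.05, against 5.37% of all genes. Their median log2 fold change was 0.00. All 27 had an upper limit under 1, the highest being 0.96, beside 87.4% of all genes.

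**Figure D1:**
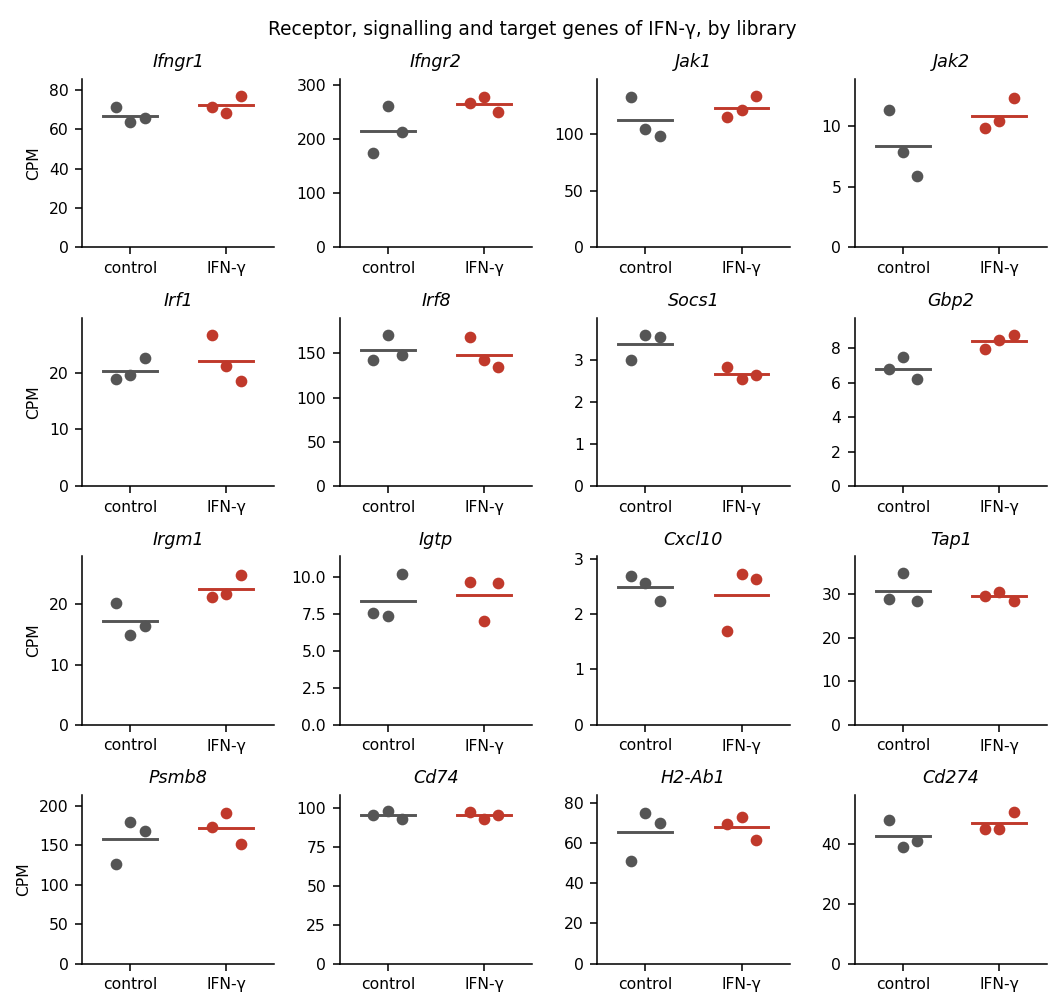
Level in CPM (vertical axis, from 0) of 16 genes of the IFN-γ response in the 3 control and 3 IFN-γ libraries; points are libraries and bars are means. Groups overlap for Jak1, Irf1, Cxcl10 and Cd74, and stand apart without passing the test for Gbp2, Irgm1 and Socs1.

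Guanylate-binding proteins (GBP) and immunity-related GTPases (IRG) attack vacuoles that hold pathogens and are among the genes that IFN-γ induces most in macrophages. Gbp2, with the ISRE-like element printed above, was at 6.78, 7.49 and 6.19 CPM in control and 7.98, 8.48 and 8.76 CPM with IFN-γ. The groups did not overlap, the log2 fold change was 0.30 ± 0.17, and the interval of -0.07 to 0.67 ended at a 1.59-fold rise (adjusted p = 0.889). Irgm1, a regulator of the IRG family, was at 20.2, 14.9 and 16.5 CPM in control and 21.2, 21.7 and 24.9 CPM with IFN-γ. Its groups did not overlap either, with a log2 fold change of 0.39 ± 0.23 that did not pass the test.

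Igtp, also called Irgm3, was at 7.59, 7.38 and 10.2 CPM in control and 9.68, 7.01 and 9.62 CPM with IFN-γ, and the groups overlapped. Gbp5, which promotes inflammasome activation, lay near the detection limit, with 5, 9 and 10 counts in control and 7, 3 and 9 counts with IFN-γ. Of the 24 GTPases listed, 21 were in the table and 9 had enough counts to be tested. Of these 9, 0 passed the test or had an unadjusted p under 0.05, beside 5.37% of all genes at the latter threshold. Their median log2 fold change was 0.06, and 8 had an upper limit under 1, beside 87.4% of all genes. The exception was Gbp9, at 5 to 26 counts per library. Gbp2b, Gbp10, Gbp11, Gm4951 and F830016B08Rik had 0 counts in all 6 libraries, where the floor, taken as 3 counts, lay at 0.152 to 0.172 CPM. Iigp1, an IRG effector, had 0, 2 and 0 counts in control and 1, 0 and 3 counts with IFN-γ, and Gbp4 had 7, 4 and 0 against 1, 0 and 0 counts. Neither exceeded 3 counts in an IFN-γ library.

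**Figure D2:**
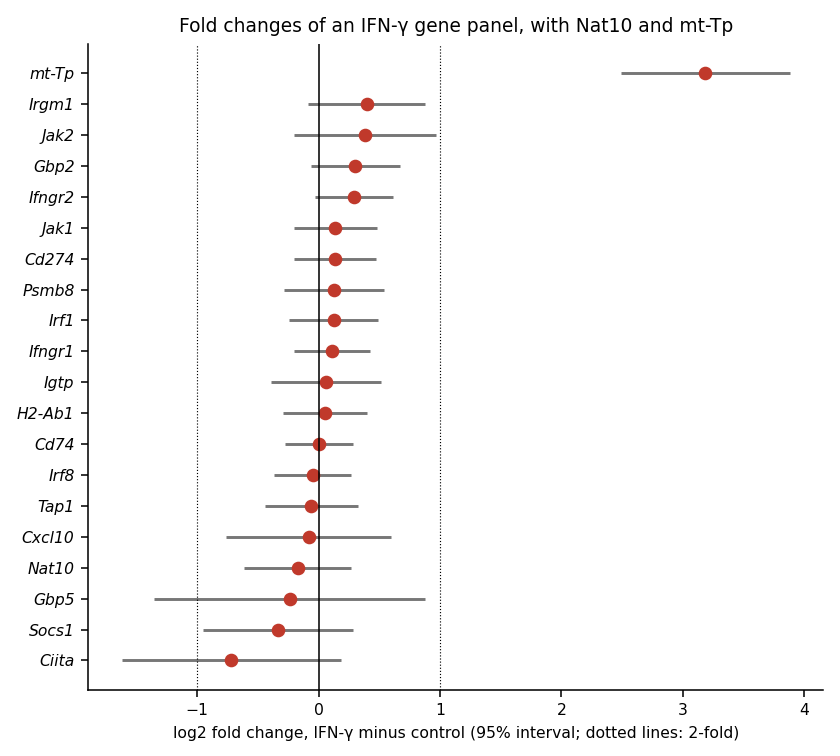
Log2 fold change of IFN-γ minus control (horizontal axis) for 18 IFN-γ response genes and Nat10, with mt-Tp on top; points are estimates, lines are 95% intervals, and dotted lines mark a 2-fold change. The interval of mt-Tp, 2.49 to 3.88, lies to the right of all others, which cross 0.

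Antiviral interferon-stimulated genes respond to type I interferon above all and partly to IFN-γ. Of 44 listed, 40 were tested, 0 passed, and 3 had an unadjusted p under 0.05, all higher with IFN-γ. The share of 3 in 40 stood beside 2.97% of all genes in that direction. The list's median log2 fold change was 0.14 against 0.00264 for all genes. Positive values numbered 30 of 40, beside 6800 of 13474 over all genes. Ifit1, which binds viral RNA, had the smallest p of the list, with 2, 4 and 4 counts in control and 12, 14 and 16 counts with IFN-γ. The groups did not overlap, and the fitted log2 fold change was 2.12 ± 0.50 at an adjusted p of 0.568. All 6 values were under 1 CPM.

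Ifi27l2a, an interferon-inducible mitochondrial protein gene, was at 12.9, 18.4 and 16.2 CPM in control and 22.3, 29.7 and 19.6 CPM with IFN-γ, a log2 fold change of 0.59 ± 0.22 (unadjusted p = 0.0154, adjusted p = 0.889). Ifi205, a member of the DNA-sensing Ifi200 family, was at 1.52, 1.30 and 1.57 CPM in control and 2.32, 3.56 and 1.95 CPM with IFN-γ. Its log2 fold change was 0.83 ± 0.33, and after the libraries' trends with GC content (described below) were removed it was 0.39 with an unadjusted p of 0.203. Zbp1, the nucleic acid sensor, ranged from 4.05 to 9.28 CPM in control and 8.87 to 11.4 CPM with IFN-γ, with overlap. Its log2 fold change was 0.55, and 0.58 with those trends removed (unadjusted p = 0.0428, adjusted p = 0.961). For Ifi27l2a the value with the trends removed was 0.65 (unadjusted p = 0.00617, adjusted p = 0.961).

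No gene of peptide presentation on MHC class I passed the test. B2m, the light chain shared by class I molecules, was at 1017, 1032 and 1098 CPM in control and 1202, 1270 and 1368 CPM with IFN-γ. The groups did not overlap, but the log2 fold change of 0.29 ± 0.17 did not pass the test and was 0.03 with the GC trend removed. Tap1, a subunit of the peptide transporter, was at 29.0, 34.9 and 28.5 CPM in control and 29.5, 30.6 and 28.5 CPM with IFN-γ, a log2 fold change of -0.06 ± 0.18. Psmb8, an immunoproteasome subunit, was at 127, 179 and 168 CPM in control and 173, 191 and 151 CPM with IFN-γ, with overlap. Psmb9, a second such subunit, was at 37.1, 45.9 and 50.8 CPM in control and 55.2, 54.6 and 50.8 CPM with IFN-γ. Its log2 fold change was 0.27 ± 0.17, and 0.34 with the GC trend removed (unadjusted p = 0.0367, adjusted p = 0.961).

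Of the 23 genes of this list, 0 passed. All had an upper limit under 1, the highest being 0.85, beside 87.4% of all genes. H2-Q6, a nonclassical class I gene, was the 1 member with an unadjusted p under 0.05, beside 5.37% of all genes. It had 7, 13 and 10 counts in control and 2, 3 and 4 counts with IFN-γ. Class I genes have near-identical copies, so reads may have been split among them.

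MHC class II genes depend on the coactivator gene Ciita, which IFN-γ normally induces through its own promoter. Ciita was at 2.43, 1.74 and 1.63 CPM in control and 1.81, 0.735 and 0.973 CPM with IFN-γ. The groups overlapped, and the log2 fold change was -0.72 ± 0.43 with an upper limit of a 1.14-fold rise. H2-Ab1, a class II beta chain, was at 51.2, 75.1 and 69.8 CPM in control and 69.3, 73.0 and 61.4 CPM with IFN-γ. Cd74, the invariant chain, was at 95.5, 98.4 and 93.0 CPM in control and 97.8, 93.2 and 95.9 CPM with IFN-γ. Its log2 fold change of 0.00 ± 0.13 allowed at most a 1.22-fold rise. Of the 15 genes of the class II list, 0 passed or had an unadjusted p under 0.05, beside 5.37% of all genes at the latter threshold. The median was -0.07, and all 15 upper limits were under 1, beside 87.4% of all genes. The list's summed level was 3966 to 4606 CPM in control and 4730 to 5106 CPM with IFN-γ, most of it from the protease gene Ctss, whose log2 fold change was 0.27 ± 0.24.

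Among the chemokines, Cxcl10 was at 2.68, 2.55 and 2.23 CPM in control and 1.70, 2.71 and 2.63 CPM with IFN-γ, a log2 fold change of -0.08 ± 0.32. Cxcl9 had 2, 1 and 0 counts in control and 0, 0 and 2 counts with IFN-γ. Cxcl11 had 0 counts in all 6 libraries. The 3 CXCR3 ligands thus stood at or near the detection limit, or level with control, in the IFN-γ libraries. Ccl8, a monocyte-attracting chemokine, was the 1 of 16 tested members with an unadjusted p under 0.05, beside 5.37% of all genes. It was at 3.19, 3.09 and 4.02 CPM in control and 5.15, 5.66 and 5.72 CPM with IFN-γ, without overlap, a log2 fold change of 0.68 ± 0.27 (unadjusted p = 0.0199, adjusted p = 0.889).

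Ccl6 and Ccl9, both strongly expressed by these cells, had log2 fold changes of 0.19 ± 0.20 and -0.01 ± 0.18. The median of the list was 0.10. Over the 6 lists of IFN-γ signalling, GTPases, antiviral genes, both presentation pathways and chemokines together, 130 different genes were tested. Of these, 0 passed. At an unadjusted p under 0.05, 4 were higher and 1 lower, beside 2.97% and 2.4% of all genes. Without overlap, 14 stood above and 7 below control, beside 9.18% and 8.51% of all genes. Of the 130, 117 had an upper limit under a 2-fold rise, beside 87.4% of all genes.

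**Figure D3:**
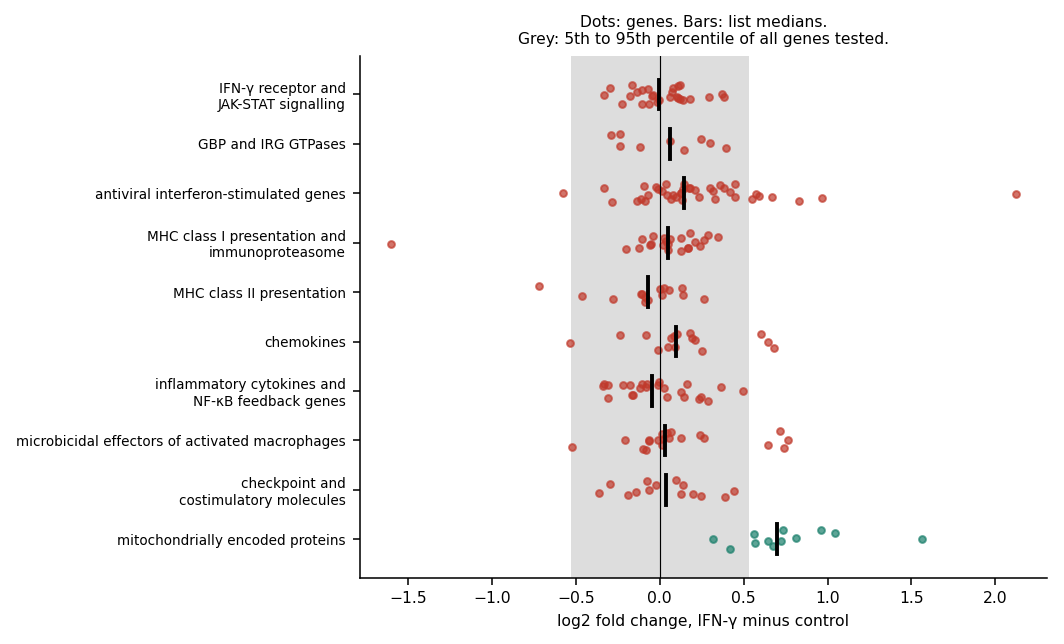
Log2 fold change of IFN-γ minus control (horizontal axis) for the tested genes of 10 lists; dots are genes, bars are list medians and the grey band holds the 5th to 95th percentile of all genes tested. Medians of the 9 immune lists lie between -0.07 and 0.14, and that of the mitochondrially encoded proteins is 0.70.

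Microbicidal genes gave no call either. Nos2 had 0 counts in all 12 libraries of the series. Ido1, which degrades tryptophan, had at most 6 counts in a library. Of 20 tested microbicidal genes, 0 passed and the median log2 fold change was 0.03. At an unadjusted p under 0.05 there was 1 of the 20, beside 5.37% of all genes. Casp4, the mouse caspase-11 that senses lipopolysaccharide, was the 1 member with an unadjusted p under 0.05, at 4.30, 5.65 and 3.80 CPM in control and 5.83, 9.10 and 8.42 CPM with IFN-γ. Its log2 fold change of 0.76 ± 0.33 was 0.40 with the GC trend removed (unadjusted p = 0.0901). Casp1, the inflammasome caspase, was at 18.9, 26.9 and 27.5 CPM in control and 35.1, 44.1 and 35.4 CPM with IFN-γ, without overlap. The log2 fold change of Casp1 was 0.64 ± 0.31 (unadjusted p = 0.0502), and 0.37 with the GC trend removed.

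Inflammatory cytokine and NF-κB feedback genes had 0 of 24 tested members with an unadjusted p under 0.05, beside 5.37% of all genes. Their median was -0.05. Tnf was at 5.52, 5.92 and 4.62 CPM in control and 6.23, 5.54 and 5.78 CPM with IFN-γ. Il6 had 1 count in 1 of the 6 libraries, and Il1b had at most 0.217 CPM.

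The checkpoint ligand Cd274, which encodes PD-L1 and is a known IFN-γ target, was at 48.0, 39.0 and 41.1 CPM in control and 44.9, 45.1 and 50.7 CPM with IFN-γ. The log2 fold change was 0.14 ± 0.16, with a limit of a 1.39-fold rise. Nectin2, a ligand of TIGIT, was at 44.0, 44.8 and 44.6 CPM in control and 39.1, 32.9 and 32.1 CPM with IFN-γ. It was the 1 of 14 checkpoint and costimulatory genes with an unadjusted p under 0.05, beside 5.37% of all genes. Its log2 fold change was -0.36 ± 0.15 (adjusted p = 0.889), or -0.23 without the GC trend. Cd80 and Cd86, the ligands of CD28, had log2 fold changes of 0.24 ± 0.28 and 0.44 ± 0.40.

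Genes of other macrophage states gave counts of the same kind. Of 17 alternative activation genes tested, 0 passed. Cd163, a haemoglobin scavenger receptor, had 9, 8 and 9 counts in control and 2, 1 and 3 counts with IFN-γ, and Clec7a, the beta-glucan receptor, was at 183, 280 and 213 CPM in control and 310, 370 and 334 CPM with IFN-γ. The log2 fold change of Clec7a was 0.58 ± 0.27, and 0.30 with the GC trend removed. Both had an unadjusted p under 0.05, in opposite directions, as did C3 and Vsig4 among 18 complement genes, beside 5.37% of all genes. C3, the central complement component, was at 259, 189 and 173 CPM in control and 142, 115 and 146 CPM with IFN-γ, a log2 fold change of -0.62 ± 0.24. Arg1 was at 9.67, 12.6 and 14.0 CPM in control and 13.6, 12.8 and 11.3 CPM with IFN-γ.

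Of 22 immediate early genes, 0 passed, 5 had positive and 17 negative values, and the median was -0.18. Over all genes, 6800 of 13474 values were positive. At an unadjusted p under 0.05, 2 of the 22 were lower and 0 higher, beside 2.4% and 2.97% of all genes. Egr1, a zinc-finger factor that responds to growth factors and handling, was at 6.63, 6.14 and 4.56 CPM in control and 2.89, 3.22 and 4.01 CPM with IFN-γ (log2 fold change -0.78 ± 0.25, unadjusted p = 0.00669, adjusted p = 0.889). Of 23 integrated stress response genes, 0 passed, 5 had positive and 18 negative values, and the median was -0.19. At an unadjusted p under 0.05, 3 of the 23 were lower and 0 higher. Slc7a5, an amino acid transporter, was at 19.6, 18.4 and 15.9 CPM in control and 12.5, 9.95 and 13.1 CPM with IFN-γ. Median GC content was 54.2% in the immediate early list and 55.5% in the stress response list, beside 49.8% for all genes. With the GC trend removed, Egr1 was at -0.65, and Slc7a5 went from -0.60 to -0.49. Gdf15 went from -0.33 to -0.16 and Cebpb from -0.31 to -0.10, and Mthfd2 stayed at -0.29. Glycolysis and cholesterol synthesis genes had 0 of 21 and 0 of 25 members with an unadjusted p under 0.05, beside 5.37% of all genes. Nat10, the target of Remodelin, was at 18.4, 19.9 and 16.0 CPM in control and 17.5, 15.5 and 15.2 CPM with IFN-γ, a log2 fold change of -0.17 ± 0.21.

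The mitochondrial proline tRNA gene mt-Tp, 67 bases long, gave the 1 call that every setting tried kept. It had 180, 102 and 68 counts in control and 874, 1107 and 968 counts with IFN-γ, or 9.11, 5.54 and 3.69 CPM against 49.5, 62.6 and 55.4 CPM. The groups did not overlap. The log2 fold change was 3.19 ± 0.33 (95% interval 2.49 to 3.88, adjusted p = 0.000304). It passed the test in all 14 alternative settings, with values of 2.93 to 3.59. In the authors' deposited table, where values of other genes also lay closer to 0 (below), its log2 fold change was 2.24.

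The control libraries were also the low ones beside the Remodelin groups. mt-Tp was at 30.6, 33.0 and 36.4 CPM with Remodelin alone and 38.8, 60.0 and 21.3 CPM with Remodelin and IFN-γ. On the Remodelin background the log2 fold change for IFN-γ was 0.27 ± 0.30 (adjusted p = 0.792). The difference between the 2 effects was -2.92 ± 0.44 (edgeR's quasi-likelihood test of the interaction, adjusted p = 0.0481), and mt-Tp was the 1 gene called for it, 0.00742% of those tested. A library kit and counting that keep strand are not stated, so reads of mt-Tp and of transcripts from the opposite strand cannot be told apart. mt-Tt, its neighbour in the mitochondrial genome, had 0, 1 and 0 counts in control and 6, 0 and 0 counts with IFN-γ.

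Gm17066 had 9, 13 and 9 counts in control and 32, 50 and 44 counts with IFN-γ, that is 0.456, 0.706 and 0.489 CPM against 1.81, 2.83 and 2.52 CPM. The log2 fold change was 2.11 ± 0.33 with an adjusted p of 0.0488. This gene falls outside the naming rule and was chosen after its values were seen. Its call was lost when any 1 of the 6 libraries was left out, with adjusted p-values of 0.0609 to 0.496, and with the GC trend removed (log2 fold change 1.58, adjusted p = 0.525).

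None of the other 22 tested genes of the mitochondrial genome passed, and all of them but the leucine tRNA gene mt-Tl1 (log2 fold change -0.35 ± 0.76) had positive values. The 12 tested mitochondrially encoded proteins, subunits of the respiratory chain and ATP synthase, all had positive values, beside 6800 of 13474 over all genes. Their median log2 fold change was 0.70, and 8 had an unadjusted p under 0.05, beside 2.97% of all genes in that direction. The protein list summed to 3215 to 6731 CPM in control and 6591 to 7604 CPM with IFN-γ. Control library 2 was the highest of the controls and overlapped the IFN-γ range for 9 of the 12. mt-Nd3, a complex I subunit, was at 4.40, 10.1 and 3.20 CPM in control and 15.3, 19.7 and 17.3 CPM with IFN-γ, a log2 fold change of 1.56 ± 0.44 (unadjusted p = 0.00226, adjusted p = 0.846). mt-Rnr1, the small ribosomal RNA, was at 87.3, 132 and 99.9 CPM in control and 192, 188 and 180 CPM with IFN-γ. Its log2 fold change of 0.81 ± 0.24 was 0.36 with the GC trend removed (unadjusted p = 0.164). With the GC trend removed, the median of the 12 proteins was 0.30, and 1 of 12 had an unadjusted p under 0.05.

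**Figure D4:**
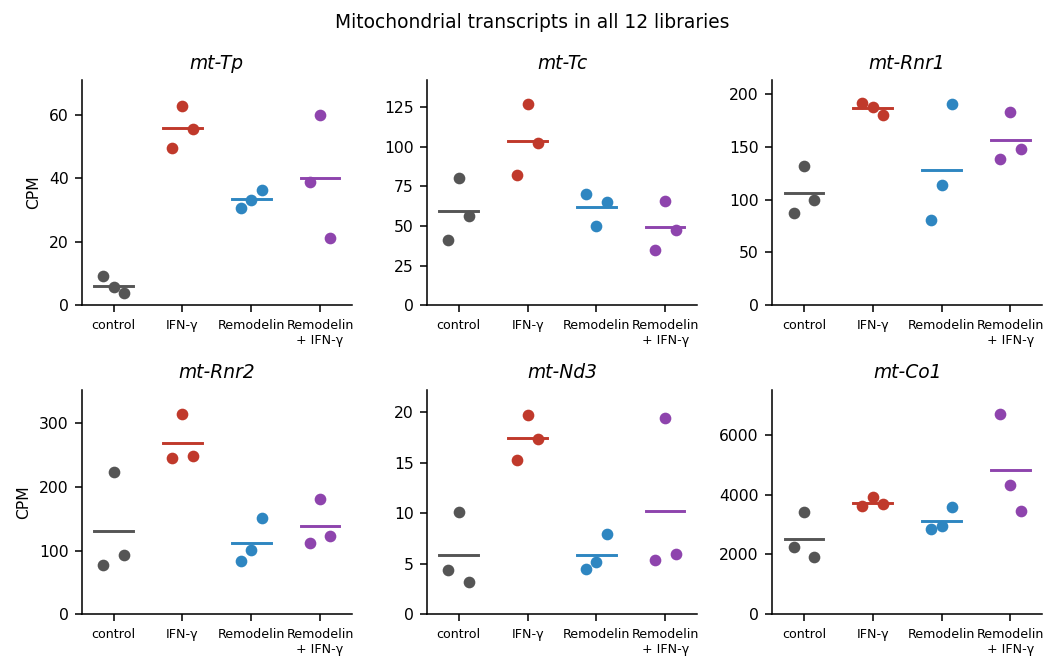
Level in CPM (vertical axis, from 0) of 6 mitochondrial transcripts in all 12 libraries; points are libraries and bars are means. The 3 control libraries of mt-Tp lie at 3.69 to 9.11 CPM, below all 9 others, and in the other 5 panels the libraries given Remodelin alone reach into the control range.

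Ribosomal proteins of the cytosol also had mostly positive values. Of 80 such genes, 0 passed. At an unadjusted p under 0.05, 16 were higher and 0 lower, beside 2.97% and 2.4% of all genes. Positive values numbered 69 of 80, beside 6800 of 13474 over all genes, and the median log2 fold change was 0.21. With the GC trend removed the median was again 0.21, with 17 of 80 at an unadjusted p under 0.05. Rpl23a, of the large subunit, was at 275, 344 and 369 CPM in control and 464, 599 and 429 CPM with IFN-γ, a log2 fold change of 0.59 ± 0.17 (unadjusted p = 0.00319, adjusted p = 0.889).

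The naming rule listed the genes with an established symbol, a mean of at least 5 CPM and the smallest p in each direction. The groups did not overlap for any of the 22 described here beside mt-Tp. Over all genes, 9.18% stood above and 8.51% below without overlap. Choice by the smallest p in the same 6 libraries favours such genes, so this adds no support. None of the 22 passed the test, with adjusted p-values of 0.624 to 0.889. On the higher side, Tmed5, a cargo adaptor of the early secretory pathway, was at 20.5, 15.1 and 10.4 CPM in control and 29.8, 39.6 and 32.8 CPM with IFN-γ. Its log2 fold change of 1.15 ± 0.30 was 0.71 with the GC trend removed. Uchl3, a ubiquitin hydrolase, was at 3.19, 4.24 and 2.71 CPM in control and 6.79, 7.63 and 8.01 CPM with IFN-γ. Haus2, a subunit of the augmin complex that branches microtubules, had a log2 fold change of 0.76 ± 0.19.

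Pfdn4, a prefoldin subunit, and Lypla1, a depalmitoylating enzyme, had log2 fold changes of 0.78 ± 0.21 and 0.83 ± 0.22, and of 0.47 and 0.53 with the GC trend removed. Fgl2, an immunoregulatory prothrombinase, was at 12.3, 9.39 and 9.12 CPM in control and 15.7, 16.3 and 17.7 CPM with IFN-γ, and its log2 fold change of 0.69 ± 0.20 was 0.43 with that trend removed. Serpinb2, an inhibitor of plasminogen activators that activated macrophages make, was at 8.56, 9.83 and 8.58 CPM in control and 13.6, 16.5 and 17.1 CPM with IFN-γ, a log2 fold change of 0.81 ± 0.24, or 0.49 without the trend. The remaining named genes on this side were mt-Nd3, mt-Rnr1, Rpl23a and Ramac, the activator of the mRNA cap methyltransferase, whose log2 fold change of 0.59 ± 0.17 was 0.25 with the trend removed.

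On the lower side, Ccn1, a matricellular protein, was at 18.9, 19.2 and 18.3 CPM in control and 12.7, 10.3 and 12.3 CPM with IFN-γ, a log2 fold change of -0.68 ± 0.17 (unadjusted p = 0.000828, adjusted p = 0.624). Loxl1, an elastin cross-linker, was at 19.2, 21.1 and 16.4 CPM in control and 13.4, 11.9 and 10.2 CPM with IFN-γ. Lamb1, a laminin chain, Ltbp2, a latent TGF-β binding protein family member, and Tgfbi, a TGF-β-induced matrix protein, had log2 fold changes of -0.94 ± 0.30, -0.81 ± 0.28 and -0.52 ± 0.17.

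Fscn1, an actin-bundling protein, was at 164, 172 and 143 CPM in control and 108, 104 and 118 CPM with IFN-γ. Map3k6, Zfpm1, Shb, Osbpl7 and Foxp4 completed the lower side, with log2 fold changes of -0.53 to -0.77. For Zfpm1 the value went from -0.55 to -0.36 with the GC trend removed.

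Markers of other peritoneal cells were measured beside these genes. The 18 mesothelial and stromal markers, of which 17 were tested, summed to 547 to 823 CPM in control and 477 to 557 CPM with IFN-γ, with a median log2 fold change of -0.23. Among them Col3a1, Upk1b, Krt7 and Col1a1 were lower and Krt18 higher at an unadjusted p under 0.05. That is 4 lower and 1 higher of 17, beside 2.4% and 2.97% of all genes. Col1a1, a collagen chain, was at 195, 110 and 98.5 CPM in control and 66.7, 60.4 and 92.5 CPM with IFN-γ, and control library 1 was the highest. In bulk RNA, fewer cells of a type and less RNA per cell cannot be told apart, and the part of these markers in the matrix genes named above was not tested.

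T and NK cell markers were nearly absent: 1 of 14 was tested, and Cd3e, Ncr1, Gzma and Gzmb had 0 counts in all 6 libraries. Ly6g and Ngp of neutrophils, and Epx and Prg2 of eosinophils, were also at 0. The 12 neutrophil markers together still summed to 70.9 to 83.9 CPM in control and 70.2 to 76.6 CPM with IFN-γ. Of the 5 of them tested, 0 passed, and Mmp9 was lower at an unadjusted p under 0.05 (log2 fold change -0.61), beside 2.4% of all genes. The 6 eosinophil markers summed to 2.71 to 4.91 CPM in control and 2.54 to 3.79 CPM with IFN-γ. B cell markers summed to 75.0 to 80.4 CPM in control and 66.3 to 79.0 CPM with IFN-γ. Ifng itself had 0 counts in all 12 libraries.

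The fold changes varied with the GC content of the transcripts. Spearman's rho between GC content and log2 fold change was -0.47 over 13339 genes, which share the same 6 libraries and are not independent replicates. Over 5 equal bins of genes from the lowest to the highest GC content, the median log2 fold change was 0.23, 0.07, -0.01, -0.07 and -0.14. In the lowest bin 237 genes were higher and 6 lower at an unadjusted p under 0.05, and in the highest 15 were higher and 167 lower. The median GC content was 42.4% for the 400 higher genes, 55.6% for the 324 lower ones and 49.8% for all genes tested.

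The trend was not the same in all libraries of a group. The rho of each library's deviation from the mean of the 6 libraries (log2 CPM) with GC content was -0.10, 0.45 and 0.42 for control libraries 1, 2 and 3 and -0.11, -0.27 and -0.50 for IFN-γ libraries 1, 2 and 3. Control library 1 and IFN-γ library 1 were nearly alike, and the other 4 libraries separated by group. The genes of the 6 interferon, presentation and chemokine lists had a median GC content of 50.3%. With the trend removed, the same 130 genes again gave 0 calls, with 7 at an unadjusted p under 0.05, of which 6 were higher. Over all 13474 genes in that fit, 342 were higher and 321 lower at this threshold.

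**Figure D5:**
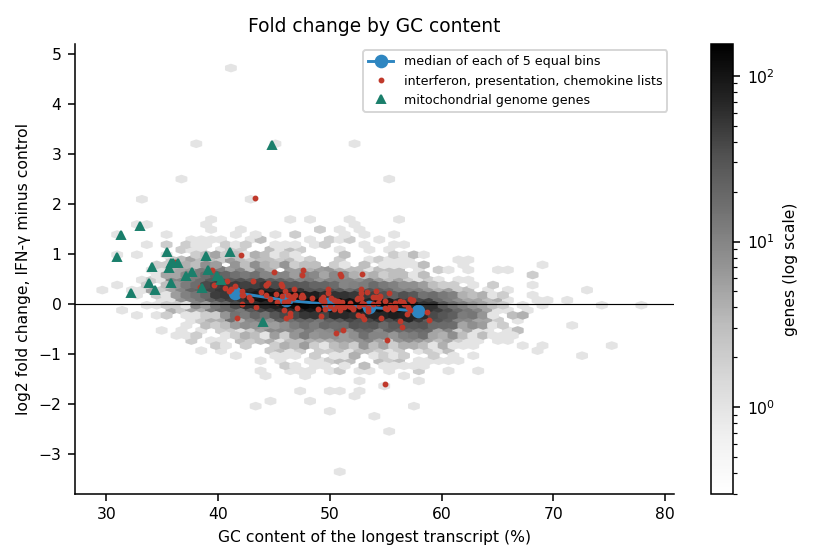
Log2 fold change of IFN-γ minus control (vertical axis) against GC content of the longest transcript in % (horizontal axis) for 13339 genes; grey shading counts genes on a log scale, blue points are medians of 5 equal bins, red dots are interferon, presentation and chemokine genes, and green triangles are mitochondrial genome genes. The medians go from 0.23 to -0.14 as GC content goes up, and most mitochondrial genes lie at the low end with positive values.

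The same IFN-γ panel was read on the Remodelin background, where the fold change compares Remodelin with IFN-γ against Remodelin alone and shares no library with the comparison above. Of its 20 tested genes, which include Nat10, 0 passed there, with log2 fold changes of -0.16 (Tap1) to 0.81 (Gbp2). Irf1 had a log2 fold change of 0.27 ± 0.18 there and Cd274 0.30 ± 0.16. Gbp2 was at 6.09, 6.34 and 6.59 CPM with Remodelin and 11.9, 10.4 and 11.1 CPM with both agents, without overlap, a log2 fold change of 0.81 ± 0.17 (adjusted p = 0.636). The difference of this effect from that without Remodelin was 0.51 ± 0.25 and did not pass the test. Ifit1, with 6, 7 and 12 counts with Remodelin and 8, 6 and 6 counts with both agents, had a log2 fold change of -0.36 ± 0.48 there. The difference of its effect was -2.49 ± 0.69 and did not pass the test either (adjusted p = 1.00).

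In the authors' deposited table of the same comparison, 122 genes had an adjusted p under 0.05, 85 higher and 37 lower with IFN-γ, of 20578 with an adjusted p. Of the 122, 111 (91.0%) had an unadjusted p under 0.05 in the same direction in the edgeR fit, beside 5.37% of all genes in either direction. The 2 sources compare the same 6 libraries, so the share is not independent support. Of the 122, 22 were pseudogenes. None of the 122 belonged to the 6 interferon, presentation and chemokine lists. Genes that did not pass in the edgeR fit and had an adjusted p under 0.05 in the authors' deposited table included all 11 genes named above on the higher side beside mt-Tp, and Ccn1, Fscn1, Lamb1, Loxl1 and Ltbp2 on the lower. In the authors' deposited table this also held for Casp1 (adjusted p = 0.0449), Clec7a (adjusted p = 0.0373) and C3 (adjusted p = 0.0283). In the authors' deposited table Irf1 had a log2 fold change of 0.09 (adjusted p = 0.910) and Gbp2 0.22 (adjusted p = 0.661). For genes of few counts the authors' values lay far closer to 0, at 0.38 for Ifit1 and 0.78 for Gm17066. The edgeR values were 2.12 and 2.11, so sizes of effect were not compared between the 2 sources. Gm17066 had no adjusted p under 0.05 in the authors' deposited table.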

How the data were processed

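Gene expression was measured by RNA-seq in cultured mouse peritoneal macrophages. The authors deposited 1 table with read counts per gene and library, FPKM values, and their own log2 fold changes and p-values. The submitters' processing notes list featureCounts 1.5.0-p3, HISAT2 2.0.5 and CASAVA 1.8, without order or role. Which genome build, annotation and strand setting were used is not stated there or in the labels, so none of the table's coordinates are printed. The deposited FPKM values were not tested. The authors' log2 fold changes and p-values were read only where the text names their table. The table holds 172 loci without a standard identifier, of which 111 were tested.

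The counts entered edgeR 4.0.16 and its quasi-likelihood test (R 4.3.3; TMM, default count filter, all 12 libraries with a mean per group). P-values were adjusted by Benjamini-Hochberg over 13474 genes and called under 0.05. Biological variation between libraries was 18.6% (common coefficient), and the median SE of a log2 fold change was 0.22. The fit was tested on simulated data. Intervals are 95%, and a floor of 3 counts covers counting error only. The comparison, gene lists and tests were chosen with earlier results of these data known. Named genes were up to 12 per direction with a mean CPM of at least 5 and an established symbol, called genes first and then the smallest p, up to 4 per list, and a fixed IFN-γ panel with Nat10. Some genes that this rule names are not reported here.

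Alternatives were DESeq2 size factors, no count filter, 50 reads in 3 libraries, DESeq2 1.42.0, limma-voom (limma 3.58.1), a replicate block, the 2 groups alone, removal of each library's GC trend, and each library left out. GC content came from the longest GENCODE M21 transcript of each gene. Promoters came from RefSeq (GRCm38.p6), matched by symbol. Fewer than 80% of tested genes had a window (9920 of 13356), so motif shares of gene lists were not compared.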

Additional observations from a re-analysis of the deposited data

Results flagged for a closer look

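The IFN-γ effect on mt-Tp differed between cells with and without Remodelin: it was smaller by 2.92 on the log2 scale with Remodelin (difference -2.92 ± 0.44, adjusted p = 0.0481 by edgeR's quasi-likelihood test of the interaction). All 3 IFN-γ libraries lay above all 3 controls without Remodelin, and the 2 Remodelin groups overlapped. The adjusted p lies close to the threshold.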

How the results depend on the processing

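The main fit called 2 genes. The count was 1 with DESeq2 size factors, 1 with at least 50 reads in 3 libraries, 1 with the GC trend removed, 1 with limma-voom and 1 to 2 when each library was left out. It was 4 with DESeq2 (2 higher, 2 lower), 19 in the fit of the 2 groups alone (15 higher, 4 lower) and 52 with no count filter (38 higher, 14 lower). Of the named genes that the main fit did not call, Tmed5, Lypla1, Uchl3, mt-Nd3 and mt-Rnr1 passed in the last 2 fits. Other genes passed in both as well, among them Rap1a and Rgs18, higher with IFN-γ, and Lars2, lower. The log2 fold change of Lars2 was -1.75 in the 2 groups alone and -1.73 with no count filter. The cause was not tested. mt-Tp was called in every setting, and the second gene called without IFN-γ library 2 was 7SK. With a replicate block the count was 1. Same-numbered libraries correlated at -0.144, 0.109 and -0.191, so the numbers were not taken as pairs. In each of the 14 alternatives the interferon, presentation and chemokine lists gave 0 calls, over 106 (50 reads) to 148 (no filter) tested genes, of which 2 and 12 had an unadjusted p under 0.05. Of 1897 pairs of a named gene and an alternative, 1871 stayed on their side of the threshold, 16 came to pass it and 10 no longer did. Of the 138 named genes, 18 changed sign in some alternative, none at an unadjusted p under 0.05 on either side. The interaction called 1 gene with the block and 1 with DESeq2. For Cxcl9, Nos2, Iigp1 and other genes of at most 3 counts in the IFN-γ libraries, depth limits what is seen to levels above the floor of 0.170 to 0.172 CPM.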
